A study of Drosophila melanogaster with 35 samples.

Results

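Wings that overexpressed dE2F1 with dDP held 47 transcripts, of 15473 on the array, whose level was raised at each of the 3 stages sampled. They were chosen by 1 rule on the deposited log2 values. The mean of the dE2F1+dDP arrays had to exceed the mean of the control arrays by at least 1 on the log2 scale, which is 2-fold, in larvae and at both pupal times. The differences between dE2F1+dDP and control are therefore how the members were found, and they are given below as a description with no test.

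The samples were 10 dissected wings of Drosophila melanogaster each, hybridised to 1-colour NimbleGen arrays. All groups carried apterous-gal4, which drives UAS transgenes in the dorsal cells of the wing only, together with UAS-GFP and tubulin-Gal80temp.sens., a repressor of Gal4 that is lost when the animals are moved from cool to warm culture. The dE2F1+dDP line added UAS-dE2F1 and UASdDP, the Cbt line added UAS-Cabut, and the control had neither. Wings were taken from wandering larvae of the last instar (L3) and at 24 h and 36 h after pupa formation. Each of the 9 groups had 4 arrays except dE2F1+dDP at L3, which had 3 after the submitters left out a sample of low quality. Each array came from whole wings, so fewer cells of a type and less RNA per cell cannot be told apart, and the undriven ventral cells are part of every value.

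E2F transcription factors bind DNA as a pair with DP and switch on genes for DNA synthesis and the cell cycle, and proteins of the retinoblastoma family hold them in check. Cells of the fly wing divide in the larva and leave the cell cycle in the pupa, and E2F activity is among the things that decide when they do. Cabut is a zinc finger transcription factor of the Krüppel-like family, and the study set the expression changes it makes beside those of the E2F pair. The files name features by FlyBase transcript ID alone. Of the 47 members, 1 could be tied to a gene through the RefSeq gene table, NaPi-III, which its name places among the sodium-dependent phosphate cotransporters, and 46 could not. It was tied through a RefSeq synonym that carries the ID FBtr0076213 and stands for that transcript's main reading frame. The members' functions are thus not described, no list of cell cycle or replication genes could be counted among them, and no marker of wing cells could be checked. Besides NaPi-III, 4 IDs are printed by a fixed rule, and 10 more were singled out after their values were seen.

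Array medians lay between 9.25 and 10.02 on the log2 scale. The arrays of dE2F1+dDP replicate 3 and control replicate 3, both of 24 h, had the lowest medians, 9.25 and 9.28, and varied most around their group means over all transcripts, with SDs of 0.68 and 0.65 against 0.18 to 0.53 on the other arrays. On dE2F1+dDP replicate 3 the 47 members averaged 9.07, below the 9.99 to 10.19 of the other 3 arrays of that group. No background level came with the values. A group mean under 6.10, the lowest 25% of all group means, is called dim here, and a difference from a dim mean has no exact size.

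The members were higher in dE2F1+dDP wings by a median of 1.48 at L3, 2.44 at 24 h and 1.90 at 36 h on the log2 scale, where the median of all transcripts lay at -0.01, -0.08 and -0.04. The ranges were 1.01 to 6.77 at L3, 1.01 to 6.50 at 24 h and 1.05 to 8.05 at 36 h. A difference of at least 2, or 4-fold, was reached by 9 members at L3, 29 at 24 h, 22 at 36 h and 7 at all 3 stages. L3 was the stage of the smallest difference for 30 members, 36 h for 13 and 24 h for 4. The difference grew from stage to stage in 22 members, and in 6 it was largest at L3. All 47 members had every dE2F1+dDP array above every control array at L3 (8.43% of all transcripts), 35 had so at 24 h (9.43%) and 45 at 36 h (14.5%). In limma, at an adjusted p under 0.05 over all transcripts, 29 were called higher at L3, beside 0.452% of all transcripts, 46 at 24 h, beside 12.4%, and 45 at 36 h, beside 12.3%. None was called lower, as the rule makes certain, beside 0.407%, 14.6% and 11.3% of all transcripts. The count at L3 was 18 without dE2F1+dDP replicate 1, 17 without replicate 3 and 44 with array weights. Since the rule used these contrasts, nothing is read from the counts. Within the slides that held both groups, all 47 were higher in dE2F1+dDP on both slides at L3, on 1 of 2 at 24 h and on the 1 slide at 36 h, and 40 were on the slide with dE2F1+dDP replicate 3 of 24 h. The 3 members nearest the threshold had smallest differences of 1.01, 1.01 and 1.02, and the 3 transcripts just outside had 1.00 (0.9999 before rounding), 0.99 and 0.99.

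**Figure D1:**
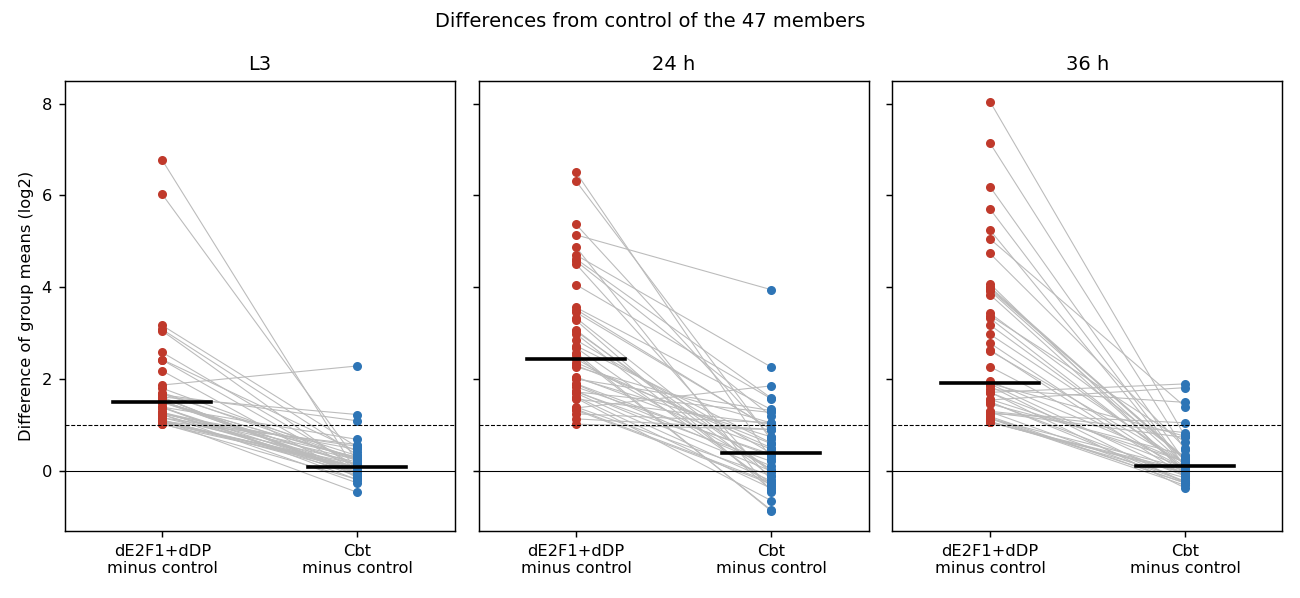
Difference of the group means from control on the log2 scale at L3, 24 h and 36 h, 1 point per member, for dE2F1+dDP (left of each panel) and Cbt (right), with a line joining the same member. Black bars are medians and the dashed line is the rule's threshold of 1, which all 47 dE2F1+dDP points exceed and 3, 12 and 5 Cbt points reach.

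NaPi-III was the named member, and its dE2F1+dDP mean in the pupa stayed near the control mean of larvae. At L3 it stood at 13.15, 13.20 and 13.23 in dE2F1+dDP wings, at 12.29, 12.12, 12.01 and 12.30 in Cbt wings and at 12.27, 12.11, 12.02 and 12.04 in control wings. The dE2F1+dDP arrays lay above all others, and those of Cbt and control overlapped. At 24 h the dE2F1+dDP arrays were at 12.86, 12.75, 12.38 and 12.74, those of Cbt at 9.32, 9.27, 9.75 and 8.91, and those of control at 8.25, 8.79, 6.42 and 9.02. The group means of the overexpressing wings differed from control by 4.57 for dE2F1+dDP, or 23.7-fold, and 1.19 for Cbt, and without the 2 arrays that stood apart these were 4.10 and 0.63. At 36 h the values were 11.68, 11.93, 11.74 and 12.35 in dE2F1+dDP, 8.26, 9.27, 7.49 and 7.63 in Cbt, and 7.88, 7.61, 7.16 and 9.04 in control. Every dE2F1+dDP array thus stayed above every Cbt and control array at each stage. The Cbt difference did not pass in limma at L3, 24 h or 36 h (adjusted p = 1.00, 0.0651 and 0.881). At 24 h it passed without control replicate 2 or 4 (0.0345 and 0.0187) but not without the 2 arrays that stood apart (0.370).

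FBtr0073511 and FBtr0084913 had the largest of the smallest differences among the unnamed members. FBtr0073511 stood at 12.74, 11.67 and 13.08 in dE2F1+dDP larval wings, at 5.13, 6.34, 5.35 and 5.87 in Cbt and at 5.87, 6.44, 5.42 and 5.19 in control, where both of the lower means are dim. At 24 h its dE2F1+dDP values were 12.66, 12.54, 7.18 and 13.02, against 7.11, 7.32, 6.25 and 6.21 in Cbt and 5.13, 7.98, 4.95 and 5.87 in control. The low dE2F1+dDP value is that of replicate 3, which overlapped the other groups, and without it and control replicate 3 the difference from control, whose mean is dim at 24 h too, was 6.41 in place of 5.37. At 36 h it was at 12.38, 12.22, 12.02 and 10.26 in dE2F1+dDP, 7.26, 5.60, 6.36 and 7.03 in Cbt and 6.48, 6.22, 8.11 and 5.09 in control, with no overlap of dE2F1+dDP with the others, and the dE2F1+dDP differences were 6.77 at L3 and 5.24 at 36 h. FBtr0084913 was at 11.48, 11.09 and 11.19 in dE2F1+dDP, 8.70, 8.59, 8.42 and 8.70 in Cbt and 7.96, 8.43, 8.36 and 7.60 in control at L3. At 24 h it was at 13.53, 13.20, 12.73 and 12.04 in dE2F1+dDP, 6.43, 6.71, 6.37 and 7.03 in Cbt and 6.81, 6.25, 5.86 and 6.58 in control. At 36 h it averaged 12.48 ± 0.18 in dE2F1+dDP, 6.49 ± 0.30 in Cbt and 6.29 ± 0.10 in control (SD, n = 4 each). Its mean thus was higher in the dE2F1+dDP pupa than in the dE2F1+dDP larva while its Cbt and control means were lower in the pupa. Its differences from control in dE2F1+dDP were 3.16, 6.50 and 6.19 at L3, 24 h and 36 h.

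**Figure D2:**
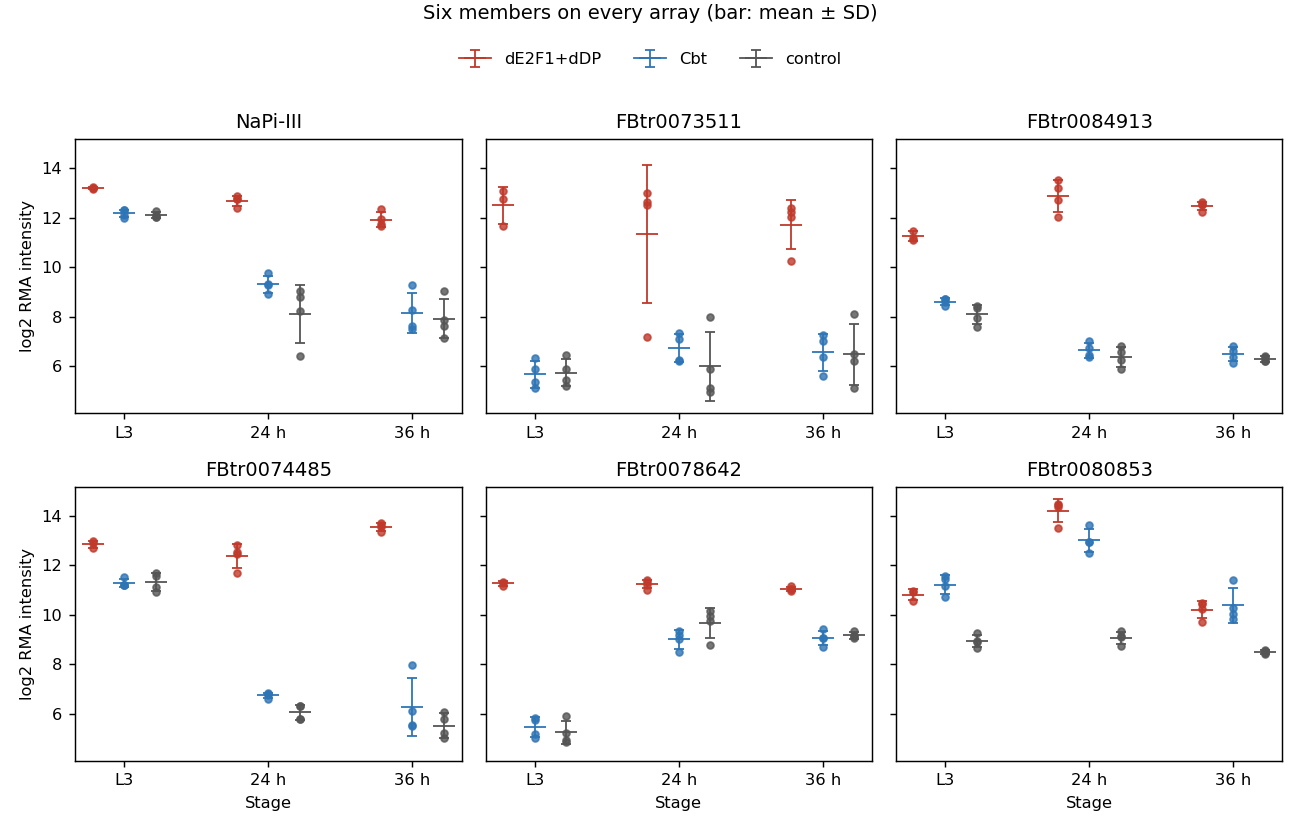
Level (log2 RMA intensity) of 6 members on every array by stage, with the mean and SD of each group, dE2F1+dDP at the left, Cbt in the middle and control at the right of each stage. FBtr0074485 and NaPi-III differ more between L3 and 24 h in Cbt and control than in dE2F1+dDP, FBtr0078642 is near its pupal level in dE2F1+dDP larvae, and FBtr0080853 is raised in Cbt as well.

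The members came from unlike courses in the control wing. The control mean was at least 1 lower at 24 h than at L3 in 16 members, moved by less than 1 in 29 and was at least 1 higher in 2. Over all 15473 transcripts it was at least 1 lower in 1651 and at least 1 higher in 1705. The 16 had a median dE2F1+dDP level of 11.80 at 24 h, against 8.33 in Cbt and 7.05 in control, and of 11.10, 9.73 and 9.53 at L3. Their median change to 24 h was -0.55 in dE2F1+dDP, -1.44 in Cbt and -2.18 in control. The 16 were chosen by the control change, and the dE2F1+dDP means entered the rule. Nothing is thus read from the order of the lines in these levels and changes. In 13 of the 16, the dE2F1+dDP mean at 24 h was at or above the control mean of L3, and the same number were so at 36 h. The rule favours this, since it asks for pupal dE2F1+dDP means at least 1 above control. The like count over all transcripts was not made. The median dE2F1+dDP difference of the 16 was 1.44, 3.39 and 3.20 at L3, 24 h and 36 h, against 1.48, 2.00 and 1.89 for the other 31 members. The control mean of 24 h enters both the class and the difference at that stage, so the gap between classes there is partly set by how they were formed.

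FBtr0074485 showed this course most sharply. It was at 12.69, 12.89 and 12.98 in dE2F1+dDP larval wings, 11.52, 11.22, 11.22 and 11.19 in Cbt, and 11.13, 11.67, 11.57 and 10.94 in control. At 24 h it was at 12.53, 12.47, 11.67 and 12.80 in dE2F1+dDP, 6.83, 6.74, 6.77 and 6.61 in Cbt, and 6.31, 6.32, 5.80 and 5.80 in control. At 36 h it was at 13.65, 13.34, 13.71 and 13.56 in dE2F1+dDP, against 7.97, 5.49, 5.53 and 6.10 in Cbt and 5.21, 5.78, 6.07 and 5.001 in control. Its differences from control in dE2F1+dDP were 1.52, 6.31 and 8.05, the last being the largest of any member at any stage, and both pupal control means are dim. FBtr0083183 averaged 11.27 ± 0.25 in dE2F1+dDP, 8.24 ± 0.45 in Cbt and 6.66 ± 0.27 in control at 24 h (SD, n = 4 each), and at 36 h 11.31 ± 0.06, 7.65 ± 0.29 and 6.26 ± 0.21. Its Cbt arrays lay between the other groups without overlap at both pupal times. FBtr0083429 averaged 12.50 ± 1.06, 10.06 ± 0.95 and 7.80 ± 1.52 at 24 h in the same order, with dE2F1+dDP replicate 3 at 10.92 and control replicate 3 at 5.51.

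A run of 4 of the 16 carry consecutive IDs, with FBtr0083246 among them, and their means followed one course. Their means lay between 10.79 and 13.40 in dE2F1+dDP, 9.39 and 11.75 in Cbt and 9.41 and 11.81 in control at L3. At 24 h they lay between 10.16 and 12.85, 8.45 and 10.31, and 7.86 and 9.40 in the same order. At 36 h they lay between 9.75 and 12.13 in dE2F1+dDP, 8.52 and 10.61 in Cbt and 8.68 and 10.85 in control. FBtr0083246 was 4.05 higher in dE2F1+dDP than in control at 24 h, and 1.60 and 1.18 higher at L3 and 36 h. Control replicate 4 was its lowest control array of 24 h, at 7.22. In the others of the run that array was the highest control array of 24 h, at 9.60, 9.84 and 8.07. Another 2 pairs of members have neighbouring IDs. The files do not say whether neighbouring IDs share a gene or probes, so these 8 transcripts may not be 8 independent measurements.

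**Figure D3:**
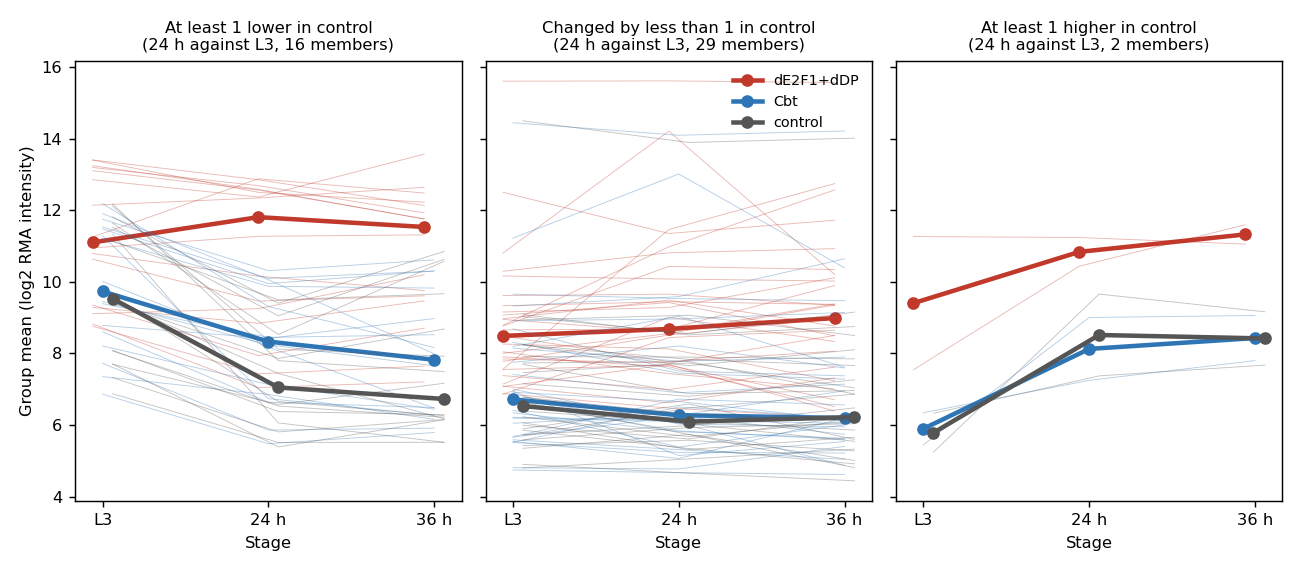
Group means of the members (log2 RMA intensity) by stage in dE2F1+dDP, Cbt and control, split by the control change from L3 to 24 h. Thin lines are members and thick lines are medians, which in the 16 members with a lower control mean at 24 h than at L3 stand at 11.80 in dE2F1+dDP, 8.33 in Cbt and 7.05 in control at 24 h.

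The 29 members with little change in control were mostly low there. Their median level at 24 h was 8.68 in dE2F1+dDP, 6.27 in Cbt and 6.09 in control. Of all 47 members, 7 had a dim control mean at every stage and 24 at none, and no dE2F1+dDP mean was dim. FBtr0075697 stood higher at each later stage in the dE2F1+dDP line while the others stayed low. Its dE2F1+dDP arrays gave 7.53, 7.69 and 7.46 at L3, then 11.74, 11.36, 11.44 and 11.28 at 24 h, then 12.35, 13.02, 13.05 and 12.53 at 36 h. In Cbt its values over all stages lay between 5.63 and 6.51, and in control between 5.09 and 7.26. Its dE2F1+dDP differences from control were 1.67, 4.87 and 7.14, those of L3 and 36 h from dim means. FBtr0087740 was the brightest member. It averaged 15.60 ± 0.11 in dE2F1+dDP (SD, n = 3), 14.44 ± 0.03 in Cbt and 14.49 ± 0.24 in control (SD, n = 4 each) at L3, and 15.61 ± 0.18, 14.09 ± 0.31 and 13.89 ± 0.27 at 24 h. No array of dE2F1+dDP overlapped the other groups, and its highest value of 15.79 lies near the top of the scale, 15.98 over all transcripts and arrays, where the size of a difference may be compressed.

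FBtr0078642 was 1 of the 2 members with a higher control mean at 24 h than at L3, and its difference was largest in the larva. Larval dE2F1+dDP wings had 11.15, 11.30 and 11.34, those of 24 h had 11.01, 11.33, 11.21 and 11.39, and those of 36 h had 10.96, 11.03, 11.17 and 11.04. In Cbt it was at 5.03, 5.84, 5.19 and 5.73 at L3 and at 9.35, 9.16, 8.49 and 9.004 at 24 h. In control it was at 5.92, 5.23, 4.95 and 4.86 at L3 and at 9.74, 8.79, 9.96 and 10.14 at 24 h, and at 36 h neither line had an array above 9.41. The dE2F1+dDP difference was 6.02 at L3, from a dim control mean, and 1.58 and 1.89 in the pupa. All 3 larval dE2F1+dDP arrays thus lay above every control array of the pupa, while the larval Cbt and control means were dim.

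**Figure D4:**
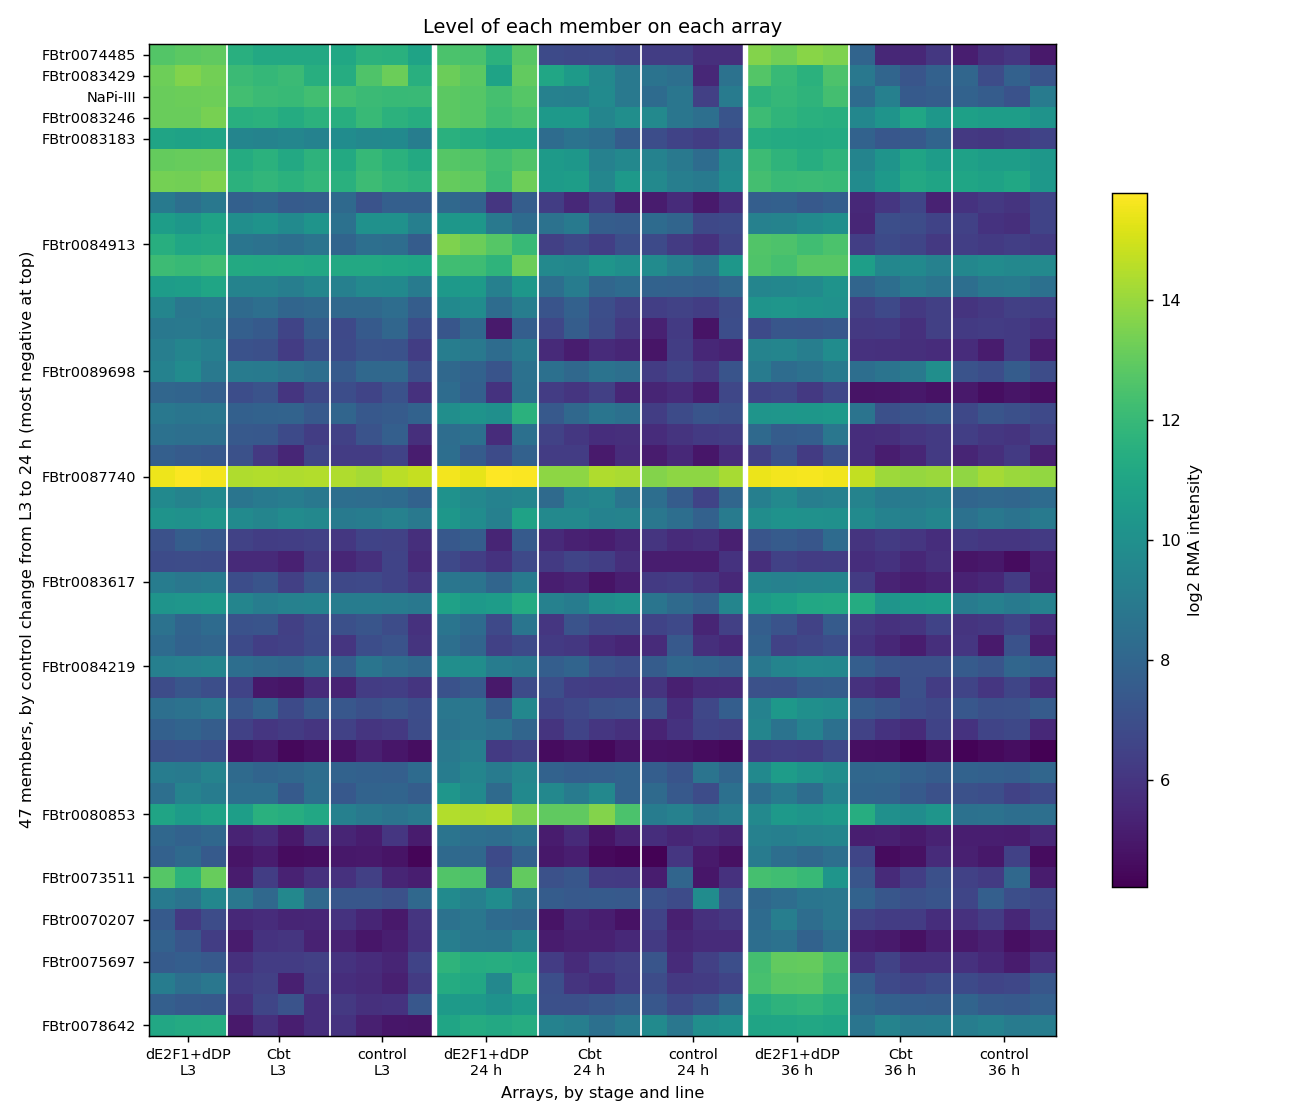
Level (log2 RMA intensity, colour) of the 47 members (rows, in order of the control change from L3 to 24 h, the most negative at the top) on the 35 arrays (columns, by stage, then dE2F1+dDP, Cbt and control). The printed members are named at the left, and the third dE2F1+dDP column of 24 h, replicate 3, is darker in several rows.

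Most members were not called in Cbt at any stage, yet the share called higher at 24 h and 36 h was above that of all transcripts. The Cbt arrays did not enter the rule, but the control arrays did, so a Cbt difference is not independent of how the members were found. Both lines are also set against the same controls. The median Cbt difference of the members was 0.08 at L3, 0.38 at 24 h and 0.10 at 36 h, where that of all transcripts was -0.01, -0.01 and -0.03. A difference of at least 1 was reached by 3 members at L3, 12 at 24 h and 5 at 36 h, beside 0.782%, 5.13% and 3.18% of all transcripts. In limma 1 member was called higher and 0 lower at L3 (2.13% of members, beside 0.504% of all transcripts higher and 0.265% lower), with 6 and 0 at an unadjusted p under 0.05. At 24 h 13 were higher (27.7%, beside 5.97%) and 1 was lower (2.13%, beside 1.84%). At 36 h 6 were higher (12.8%, beside 4.76%) and 0 lower (beside 2.53%), with 8 and 0 at an unadjusted p under 0.05. The count of 14 calls at 24 h was 8 without control replicate 3, 4 with the slide as a block and 3 when only these groups were modelled, and no slide held both groups at 24 h. Shares over all transcripts were not counted in these settings, so the higher share of members at 24 h is shown for the main fit only. Every Cbt array lay above every control array in 5 members at L3 (4.18% of all transcripts), 8 at 24 h (6.45%) and 8 at 36 h (7.13%). Centring each array on its median took the median of all transcripts at 24 h to -0.20 and that of the members to 0.18. Of the 13, 6 belong to the 16 with a lower control mean at 24 h than at L3, and 7 to the 29 that moved by less than 1. The control mean of 24 h enters both the class and this Cbt difference, so the split is partly set by how the classes were formed. In 34 members Cbt was called higher at no stage, in 7 at 1, in 5 at 2 and in 1 at all 3. These counts of stages were not made over all transcripts.

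That 1 member was FBtr0080853, and its means peaked at 24 h in both overexpressing lines. At L3 it was at 10.96, 10.55 and 10.90 in dE2F1+dDP, 10.71, 11.55, 11.45 and 11.16 in Cbt and 9.25, 8.91, 8.67 and 8.92 in control. At 24 h it was at 14.46, 14.38, 14.48 and 13.51 in dE2F1+dDP, 12.95, 12.96, 13.62 and 12.51 in Cbt and 9.09, 9.32, 8.73 and 9.12 in control. At 36 h it was at 9.69, 10.46, 10.24 and 10.42 in dE2F1+dDP, 11.42, 10.03, 9.83 and 10.27 in Cbt and 8.54, 8.57, 8.42 and 8.46 in control. The overexpressing lines overlapped at all stages and no control array reached either of them. The control means stayed between 8.50 and 9.07. The Cbt difference from control was 2.28 at L3, 3.94 at 24 h and 1.89 at 36 h (SE 0.27 each; limma adjusted p = 4.36e-06, 2.08e-11 and 1.29e-05). At 24 h that is 15.4-fold, and the dE2F1+dDP difference of 5.14 is 35.2-fold.

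FBtr0089698 was raised to like levels in both lines. At 24 h it was at 8.13, 7.84, 7.24 and 8.54 in dE2F1+dDP, 8.48, 8.12, 8.63 and 8.43 in Cbt and 6.27, 6.64, 6.13 and 7.25 in control, so that the lowest dE2F1+dDP array overlapped control and no Cbt array did. Its Cbt difference was 1.08 at L3, 1.85 at 24 h and 1.81 at 36 h (SE 0.31 each; limma adjusted p = 0.124, 0.000101 and 0.00016), beside dE2F1+dDP differences of 1.65, 1.37 and 1.54. FBtr0083183 was higher in Cbt by 1.58 at 24 h and 1.39 at 36 h (SE 0.18 each; limma adjusted p = 3.00e-07 and 3.16e-06) and stood at -0.12 at L3 (1.00). FBtr0083429 was higher in Cbt by 2.26 at 24 h (SE 0.57, adjusted p = 0.00999), which was 1.497 without control replicate 3 (0.0816, or 0.0306 with dE2F1+dDP replicate 3 left out as well) and 1.23 with the slide as a block (0.640). That call also ended when only these groups were modelled (0.232) and without Cbt replicate 1 (0.0548). FBtr0083246 was higher by 1.57 at 24 h (SE 0.33, adjusted p = 0.00149), a call that ended when only these groups were modelled (0.181). The others of its run of consecutive IDs had closer Cbt and control means at 24 h. They were 9.95, 10.31 and 8.45 in Cbt and 9.05, 9.40 and 7.86 in control.

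Cbt was lower than control in 1 called member, FBtr0083617, which averaged 8.59 in dE2F1+dDP and was at 5.18, 5.38, 4.84 and 5.18 in Cbt and 6.19, 6.34, 6.02 and 5.55 in control at 24 h. The difference of -0.88 (SE 0.24, limma adjusted p = 0.0197) lies between dim means and ended with the slide as a block (0.185), when only these groups were modelled (0.0767), and without Cbt replicate 3 (0.0863) or control replicate 1 or 2 (0.0596 and 0.0666). The member whose ID neighbours FBtr0083617 had means of 5.48 in Cbt and 5.51 in control at 24 h, both dim. With median centring 3 members were called lower in Cbt at 24 h, and without control replicate 2 there were 2. FBtr0078642 had a Cbt difference of -0.65 at 24 h (SE 0.24, adjusted p = 0.10), which passed in both settings (-0.85, adjusted p = 0.0247, and -0.94, adjusted p = 0.00499). The unnamed members with the lowest mean Cbt difference over the stages were FBtr0070207 and FBtr0084219, and neither passed at any stage. For FBtr0070207 the Cbt differences were -0.04, -0.86 and 0.16 at L3, 24 h and 36 h (SE 0.29 each; adjusted p = 1.00, 0.0639 and 0.902), with the difference at 24 h, between dim means, passing under median centring (-1.06, adjusted p = 0.0193) and without control replicate 2 (-1.09, adjusted p = 0.0160). For FBtr0084219 they were 0.07, -0.39 and -0.38 (SE 0.24 each; adjusted p = 1.00, 0.405 and 0.485). Their dE2F1+dDP differences at 24 h were 2.52 and 1.61.

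The change between stages within the Cbt line is a difference between arrays that did not enter the rule, while the spread behind its test was pooled over all 9 groups. From L3 to 24 h, 18 of the 47 members fell in Cbt and 3 rose, which is 38.3% and 6.38% of the members, beside 14.3% and 17% of all transcripts, by limma at an adjusted p under 0.05. The median change was -0.50 for the members and -0.02 for all transcripts, or -0.68 and -0.20 with each array centred on its median. NaPi-III fell in Cbt by 2.87 (SE 0.40, adjusted p = 1.04e-06), FBtr0074485 fell by 4.55 (SE 0.34, adjusted p = 5.26e-12) and FBtr0084913 fell by 1.97 (SE 0.24, adjusted p = 9.55e-08). FBtr0078642 rose by 3.56 (SE 0.24, adjusted p = 5.60e-13) and FBtr0080853 by 1.79 (SE 0.27, adjusted p = 4.65e-06). Of the 16 members whose control mean was at least 1 lower, 14 were called as falling in Cbt too, and both with one at least 1 higher were called as rising. Over all transcripts 70.7% of those with a control mean at least 1 lower, and 76.5% of those with one at least 1 higher, were called the same way in Cbt, so nothing particular to the members is read from these counts. With the Cbt arrays of these stages modelled alone, 20 members fell and 3 rose. The count of 21 calls lay between 18 and 28 under all alternatives tried.

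**Figure D5:**
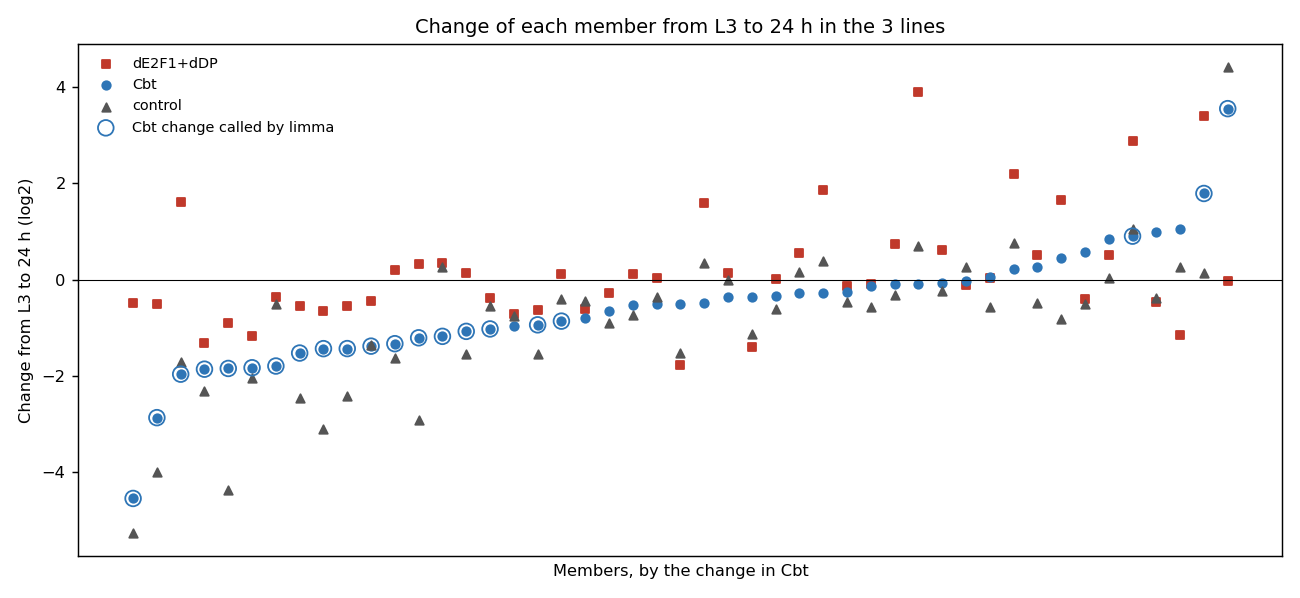
Change of the group mean from L3 to 24 h on the log2 scale in dE2F1+dDP (squares), Cbt (circles) and control (triangles) for each of the 47 members, in order of the Cbt change. Open rings mark the 18 falls and 3 rises called in Cbt, and most dE2F1+dDP squares at the left lie above the Cbt and control marks.

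In control wings, on arrays that the rule used for another contrast, 18 members fell and 3 rose from L3 to 24 h, beside 19% and 17.5% of all transcripts. Of the falls, 14 were shared with Cbt, 77.8% of each list, and over all transcripts 59.7% of those that fell in control did so in Cbt. Both lists rest on 1 pooled spread, and the difference between these shares was not tested. NaPi-III changed by -3.99 in control (SE 0.40, limma adjusted p = 1.59e-09) and FBtr0078642 by 4.42 (SE 0.24, adjusted p = 4.13e-15). In dE2F1+dDP 5 members had a mean at least 1 lower at 24 h than at L3 and 8 had one at least 1 higher, against 16 and 3 in Cbt and 16 and 2 in control. These counts of means were not tested against each other, and for dE2F1+dDP and Cbt the like counts over all transcripts were not made.

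From 24 h to 36 h fewer members changed. In Cbt 7 fell and 2 rose (14.9% and 4.26% of members, beside 12.7% and 8.27% of all transcripts), so the share of falls was near that of the array. FBtr0080853 fell by 2.62 (SE 0.27, limma adjusted p = 3.33e-08) and FBtr0083429 fell by 2.06 (SE 0.57, adjusted p = 0.00941; 0.299 with the slide as a block), and FBtr0070207 rose by 1.13 (SE 0.29, adjusted p = 0.00471). NaPi-III changed by -1.15 (SE 0.40, adjusted p = 0.0385), a call that ended with the slide as a block (0.277), when only these groups were modelled (0.0849), and on leaving out any 1 of 6 of its 8 arrays. The 9 calls were 3 with the slide as a block, 1 fall and 2 rises, and 5 without Cbt replicate 1 of 24 h, 3 falls and 2 rises, and on the 1 slide that held both groups 7 of the 9 had the same sign. In control 3 members fell and 4 rose (6.38% and 8.51%, beside 12.7% and 10.5%). With array weights these were 7 falls and 5 rises, and without control replicate 1 of 24 h 1 fall and 4 rises. FBtr0083246 was among those that rose, by 2.04 (SE 0.33, adjusted p = 2.02e-05), and no member that rose in control rose in Cbt. In dE2F1+dDP 3 members had a mean at least 1 lower at 36 h than at 24 h and 5 had one at least 1 higher. The like counts over all transcripts were not made here either.

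The number of probes, which the rule did not use, was near that of the rest of the array. A level summarised from 5 probes was behind 61.7% of the members and 65.3% of all transcripts, and 4 probes were behind 38.3% and 34.6%. In control the members were lower than the array as a whole, with medians of 7.47, 6.57 and 6.29 at L3, 24 h and 36 h, against 9.69, 9.61 and 9.68 for all transcripts. In dE2F1+dDP the medians of the members were 9.07, 9.44 and 9.61, beside 9.66, 9.54 and 9.74. The control means entered the rule, so their low level is a description of what it selected.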

How the data were processed

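NimbleGen arrays were hybridised in 1 colour (Cy3) with material from total RNA of wings. The deposited series table gives log2 values per transcript, made by the authors with RMA, per the submitters' processing notes. The deposited array files hold the same values as linear RMA intensities (14.6 to 64595), whose log2 equals the table to within 5.00e-09. The version and settings of RMA, whether all 35 arrays were normalised together, and the release behind the transcript IDs are not given in the sources used here.

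Group means were taken over the 35 arrays. A mean for each of the 9 groups was estimated in a single model of all 15473 transcripts with limma 3.58.1 (R 4.3.3) and eBayes, and p-values were Benjamini-Hochberg adjusted over all transcripts of each of 10 contrasts. A transcript was called at an adjusted p under 0.05. The model has 26 residual degrees of freedom and 2.86 prior ones. The procedure was also run on simulated data whose noise was independent between arrays and of the same size on each. That run does not cover arrays that deviate together or stand apart, as some did here. Replicates are independently isolated samples, per the labels, and no arrays were identical (highest correlation 0.996). Precision is limited by how many arrays there were.

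The 47 members, the classes and the tests were chosen with earlier results of these data known. The members with a gene name were all to be named, together with up to 2 IDs with the largest smallest dE2F1+dDP difference and 2 with the lowest mean Cbt difference. RefSeq's gene table (Release 6) tied 17 of the 15473 IDs to 1 gene and 27 to several. The transgenes, the lists of cell cycle and replication genes, and the cell type markers could not be tied to IDs among the members, so these, and promoter and protein sequences, were not analysed here. Slides were read from the array names (9 slides of 3 or 4 arrays).

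Same-numbered arrays deviated together between dE2F1+dDP and control at 24 h (correlations of 0.306 to 0.734 over all 4 pairs), which pairs them there. In no other contrast did every pair pass 0.1, with 3 of 4 doing so between Cbt and control at 24 h (0.024 to 0.408), so the numbers were not taken as pairs. Alternatives were median centring, the slide or the replicate number as a block, 2-group models, array weights, leaving out dim transcripts, the 2 arrays that stood apart, each array in turn, and other thresholds.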

Additional observations from a re-analysis of the deposited data

Results flagged for a closer look

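Sets of 4 arrays, 128 in all, were taken from each printed member and from the mean over all members. Of these, 7 had an array far from the others by Dixon's critical value, which chance alone passes in about 1 of 20 sets. The 7 are near that share, so nothing is read from their number. FBtr0073511 was low on dE2F1+dDP replicate 3 of 24 h, at 7.18, and on dE2F1+dDP replicate 4 of 36 h, at 10.26. FBtr0083429 was low on the 2 arrays of 24 h that stood apart over all transcripts, at 10.92 on dE2F1+dDP replicate 3 and 5.51 on control replicate 3. FBtr0080853 was low on dE2F1+dDP replicate 4 of 24 h, at 13.51. FBtr0074485 was high on Cbt replicate 1 of L3, at 11.52, and FBtr0075697 on Cbt replicate 2 of 36 h, at 6.51.

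The difference between Cbt and control was compared between neighbouring stages by an interaction term in limma for each printed member. Of 30 such tests, 6 passed. All use the control arrays that the rule used. Every member that passed was singled out after its values were seen, so this count depends on that choice. Over all 47 members, 3 were called higher and 1 lower at 24 h against L3, beside 353 and 48 of all 15473 transcripts. At 36 h against 24 h these were 0 and 2, beside 107 and 204. The Cbt difference of FBtr0080853 was 1.66 higher at 24 h than at L3 (SE 0.39, adjusted p = 0.011), and at 36 h against 24 h it moved by -2.06 (SE 0.39, adjusted p = 0.00214). For FBtr0083246, whose control mean of 24 h includes a low replicate 4, these changes were 1.67 (SE 0.46, adjusted p = 0.044) and -1.84 (SE 0.46, adjusted p = 0.028). FBtr0083183 had a Cbt difference 1.71 higher at 24 h than at L3 (SE 0.26, adjusted p = 8.68e-05). For FBtr0083617 it moved by -1.30 from L3 to 24 h (SE 0.34, adjusted p = 0.0333), and the means of 24 h are dim. The member with the neighbouring ID had Cbt and control means of 6.86 and 6.87 at L3 and 5.48 and 5.51 at 24 h.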

How the results depend on the processing

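The rule gave 98 members at a threshold of 0.8, 28 at 1.2, and 24 where no control mean was dim, in place of 47, and 43 to 61 with 1 array left out. With array weights 44 members were called at L3 between dE2F1+dDP and control in place of 29, 3 between Cbt and control in place of 1, and 12 between control at 36 h and 24 h in place of 7. Between Cbt and control at 24 h, 14 calls became 4 with the slide as a block and 3 when only these groups were modelled. Between Cbt at 36 h and 24 h, 9 became 3 with the slide. Without both arrays that stood apart, 39 were called at L3 between dE2F1+dDP and control, 2 between Cbt and control at L3, and 11 between Cbt at 36 h and 24 h. With 1 array left out, the calls were 17 to 27 for dE2F1+dDP at L3, 44 to 47 at 24 h and 42 to 46 at 36 h. For Cbt against control they were 1 to 1 at L3, 8 to 16 at 24 h and 5 to 7 at 36 h. Within Cbt they were 20 to 21 from L3 to 24 h and 5 to 10 from 24 h to 36 h, and within control 19 to 24 and 5 to 8. The other planned settings left these counts within 1.5 times. Directions were followed for the printed members only, and there no direction of a called value reversed. The causes were not tested.

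With the replicate number as a block the rule gave 50 members, which held all 47, and the counts of calls were 27, 46 and 44 for dE2F1+dDP against control at L3, 24 h and 36 h and 1, 14 and 7 for Cbt against control. The block thus moved no count by over 1.5 times, and with it NaPi-III passed between Cbt and control at 24 h (limma adjusted p = 0.0478). It gave each replicate number an effect shared by all groups and stages. It therefore cannot show what a pairing confined to 24 h does to the counts. With the slide as a block the rule gave 53, which held 40 of the 47. Median centring moved the median of all transcripts by over 0.1 in 4 contrasts: from -0.08 to 0.03 for dE2F1+dDP at 24 h, from -0.01 to -0.20 for Cbt at 24 h, from -0.02 to -0.20 for Cbt from L3 to 24 h, and from -0.07 to 0.06 for Cbt from 24 h to 36 h, where the members' median turned from -0.06 to 0.08. With no background level given, low values bound the size of differences from dim means.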
